A study of Mus musculus with 9 samples.

Results

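The striated muscle microRNAs are mmu-miR-1a-3p, mmu-miR-133a-3p, mmu-miR-133a-5p, mmu-miR-133b-3p and mmu-miR-206-3p (mmu for mouse, left out below), known for being made mainly by skeletal muscle and heart. They were taken by name from the deposited counts, as 5 of 1064 known mouse microRNAs, with no threshold on their values. The libraries came from mouse serum, where the cargo of small extracellular vesicles (sEVs, membrane particles that cells shed into body fluids) was sequenced as small RNA. The study's question, from its title and design, was how vesicle microRNAs change with a high fat diet (HFD) and with Sirt3, a mitochondrial deacetylase, raised in fat tissue. The first group, chow WT, was wild-type mice on chow. The second, HFD WT, was mice labelled wild type on the high fat diet, although their library names contain SIRT3CKI while those of chow WT contain WT. The third, HFD Sirt3 AKI, was mice on the high fat diet with Sirt3 overexpressed in adipose tissue. Small RNA holds no Sirt3 messenger RNA, so the overexpression itself is not checked here. There were 3 libraries in each group. The series title speaks of male mice. No source used here gives the promoter that drives the overexpression, the age of the mice, the length of the diet or the number of animals behind a library. All p-values therefore measure the spread between these libraries, which may be technical.

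A microRNA is a short RNA, cut from a hairpin precursor, that guides the silencing of messenger RNAs, and it finds them mainly through its seed (bases 2 to 8). The muscle microRNAs form pairs of families: miR-1 and miR-206 share a seed and so do miR-133a and miR-133b. miR-1 and miR-133a are made from common primary transcripts in both heart and skeletal muscle. miR-206 and miR-133b are made from a locus of their own and are known mainly from skeletal muscle. In cultured muscle cells, miR-1 and miR-206 are known to promote differentiation and miR-133 is best known for promoting proliferation of myoblasts, the muscle precursor cells. In blood, these microRNAs are used as markers of muscle or heart injury.

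RefSeq sequences (build GRCm38.p6) matched 2 of the 5 microRNAs by name. They are shown because they mark the skeletal muscle locus and the differing seeds of the families, with the seed in capitals:
miR-206-3p: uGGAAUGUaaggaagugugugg
miR-133b-3p: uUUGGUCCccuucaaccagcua
miR-206-3p lies at chr1:20679055-20679076 and miR-133b-3p at chr1:20682834-20682855, both on the plus strand. The hairpin of Mir206 spans chr1:20679010-20679082 and that of Mir133b spans chr1:20682769-20682887, with 3686 bases between them. In the annotation both hairpins overlap exons of Gm28653, a long intergenic noncoding RNA on the same strand. The hairpins are printed with the mature 3p arm in capitals, to show which arm the values below count:
Mir206: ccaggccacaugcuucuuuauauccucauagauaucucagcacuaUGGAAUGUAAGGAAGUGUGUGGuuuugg
Mir133b: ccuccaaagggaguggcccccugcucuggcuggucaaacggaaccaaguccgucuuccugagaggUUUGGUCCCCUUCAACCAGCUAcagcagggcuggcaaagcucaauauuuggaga
The 5p arms of these hairpins had 0 to 3 counts in any library. miR-133a-3p and miR-133b-3p are near-identical sequences, so reads of one may have been counted as the other, and their values are uncertain to that extent. miR-486a and miR-486b, which appear below, had identical counts in every library.

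Total counts per library were 225002 to 306974 in the chow WT libraries, 1953935 to 2162009 in HFD WT and 1729416 to 2973432 in those of HFD Sirt3 AKI. All 5 muscle microRNAs were counted in all 9 libraries and entered the test. Levels are given below as normalised CPM, which are counts per 1000000 after scaling by edgeR's trimmed mean of M values (TMM). This scaling moved the log2 fold change of HFD WT over chow WT by 0.73 relative to library totals, that of HFD Sirt3 AKI over HFD WT by -0.31 and that of HFD Sirt3 AKI over chow WT by 0.42, so a direction between diets can depend on it and both values are given. The labels carry a batch entry, of unstated meaning, that is shared by 7 libraries and differs in HFD Sirt3 AKI replicates 2 and 3. HFD Sirt3 AKI replicate 2 stood apart in microRNAs of other tissues. The 2 hepatocyte microRNAs, miR-122-5p and miR-122-3p, summed to 28404 TPM (counts per 1000000 of the library total) there, against 5301 and 10170 TPM in the other two libraries of its group and 3139 to 8527 TPM in the other groups. The 3 brain microRNAs summed to 4441 TPM there, against 119.81 to 1044 TPM in the other 8 libraries. The 4 smooth muscle and stroma microRNAs summed to 9039 TPM there, against 2988 to 7036 TPM in the other libraries. The largest part of that sum was miR-143-3p, at 7627 normalised CPM there against 2156 to 4324 elsewhere. miR-145a-5p of the same list was not raised there, at 562.4 against 1960 to 2537 in chow WT and 293.9 to 568 in the remaining libraries. Results that rest on HFD Sirt3 AKI replicate 2 are given with and without it.

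The muscle microRNAs were a small part of the vesicle microRNAs. Together they held 1.005% ± 0.0526 (SD, n = 3) of all counts in the chow WT libraries, 0.866% ± 0.102 in HFD WT and 0.970% ± 0.298 in those of HFD Sirt3 AKI. Within HFD Sirt3 AKI the share was 1.31% in replicate 2 and 0.754% and 0.847% in the other two, and without replicate 2 the difference from HFD WT turned from 0.104 to -0.066 percentage points. Two-sided exact permutation tests on 3 against 3 libraries, which cannot go below 0.1, gave p = 0.2 for HFD WT against chow WT, p = 0.8 for HFD Sirt3 AKI against HFD WT and p = 0.9 for HFD Sirt3 AKI against chow WT. A share of all counts also depends on the other microRNAs counted. The 5 red cell microRNAs listed below summed to 208360 to 237551 TPM in chow WT and 304469 to 322649 TPM in HFD WT. In HFD Sirt3 AKI they summed to 291198 to 337258 TPM. The order within every one of the 9 libraries was the same: miR-133a-3p first, then miR-1a-3p, miR-206-3p, miR-133b-3p and miR-133a-5p. Between libraries, neighbours in that order overlapped in one case in chow WT, where miR-133a-3p spanned 2744 to 3316 and miR-1a-3p 2390 to 2938 normalised CPM. In HFD Sirt3 AKI, miR-1a-3p, at 1737 to 4359, overlapped miR-206-3p, at 1427 to 2203. Mature microRNAs are of like length and the values carry no length term, but ligation and amplification can favour some sequences, so differences between microRNAs are of read levels. By TPM, miR-133a-3p ranked 38 to 42 among known microRNAs in the chow WT libraries, 27 to 33 in HFD WT and 31 to 33 in those of HFD Sirt3 AKI. miR-133a-5p ranked 212 to 245, 252 to 298 and 303 to 313.

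**Figure D1:**
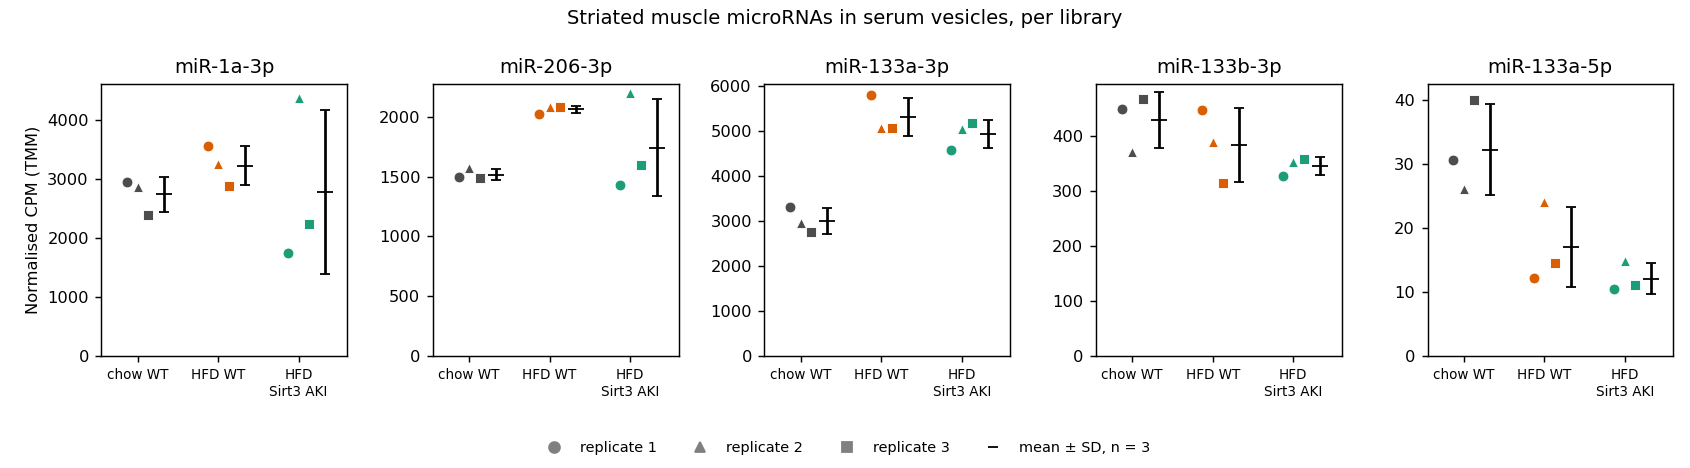
Normalised CPM (vertical axis, from 0, with its own scale in each panel) of the 5 striated muscle microRNAs in chow WT, HFD WT and HFD Sirt3 AKI; symbols are libraries and bars are mean ± SD of 3 libraries. miR-133a-3p sits between 2744 and 3316 in chow WT and between 4576 and 5791 in the other 6 libraries, and HFD Sirt3 AKI replicate 2 is the highest library for miR-1a-3p and miR-206-3p.

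The question of the first comparison is what the diet did in wild-type mice. Under TMM scaling, edgeR's quasi-likelihood test called 2 of the 5 muscle microRNAs higher in HFD WT than in chow WT and 0 lower at a Benjamini-Hochberg adjusted p below 0.05, and 3 had an unadjusted p below 0.05. DESeq2 called 1 higher and 0 lower, beside 67 higher and 76 lower of all 414 tested. An unadjusted edgeR p below 0.05 was reached by 188 of all 414. Of all 414 microRNAs tested by edgeR, 21.5% were called higher and 16.2% lower, so calls were common and the count of 2 among 5 is not read as particular to the muscle microRNAs. The median log2 fold change was 0.24 over the muscle microRNAs and 0.15 over all tested.

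miR-133a-3p, the muscle and heart microRNA of the miR-133 family, was the most abundant of the 5. Its normalised CPM were 3316, 2954 and 2744 in the chow WT libraries, 5791, 5067 and 5068 in HFD WT, and 4576, 5052 and 5167 in those of HFD Sirt3 AKI. All 6 libraries on the high fat diet lay above all 3 on chow, and the 2 groups on the diet overlapped. miR-133a-3p rose 1.77-fold in HFD WT over chow WT (log2 fold change 0.82, SE 0.117, 95% interval 0.56 to 1.08, edgeR adjusted p = 2.52e-04). The size of this rise depended on the scaling: relative to library totals the log2 difference was 0.10 (edgeR adjusted p = 0.633), and TPM in the 2 groups overlapped, at 3649 to 4235 in chow WT and 3834 to 4815 in HFD WT. Relative to the median of all tested microRNAs the difference was 0.67 on the log2 scale under both scalings. That median was 0.15 under TMM and -0.57 with library totals. A change of scaling shifts all tested microRNAs nearly alike, so this agreement was fixed in advance and is no check on the rise.

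miR-206-3p, the member made mainly in skeletal muscle, had 1492, 1574 and 1484 normalised CPM in the chow WT libraries, 2027, 2078 and 2079 in HFD WT, and 1427, 2203 and 1594 in the HFD Sirt3 AKI libraries. The chow WT and HFD WT libraries did not overlap, and within each of these groups the spread was small, at 1516 ± 49.6 and 2061 ± 29.6 (SD, n = 3). miR-206-3p rose 1.36-fold under TMM (log2 fold change 0.44, SE 0.155, edgeR adjusted p = 0.0449). Relative to library totals the difference turned to -0.29 (edgeR adjusted p = 0.299). The call was also lost in edgeR without any 1 chow WT library, any 1 HFD WT library, or without replicate 3 of HFD Sirt3 AKI, at adjusted p from 0.0503 to 0.116, and in DESeq2, at an adjusted p of 0.130.

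miR-1a-3p, the partner of miR-133a-3p in its transcripts, had 2938, 2863 and 2390 normalised CPM in the chow WT libraries and 3544, 3239 and 2878 in HFD WT. The groups overlapped, and the log2 difference of 0.24 (SE 0.278) did not pass the edgeR test (adjusted p = 0.547). Relative to library totals it was -0.49. Without HFD Sirt3 AKI replicate 2, edgeR called miR-1a-3p higher as well, with a log2 fold change of 0.36 (adjusted p = 0.0222). In that fit 3 of the 5 were called higher, beside 27.6% of all tested. In the larger batch alone the 3 were called higher too, beside 24.9% of all tested, with a log2 fold change of 0.30 for miR-1a-3p (edgeR adjusted p = 0.0335).

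miR-133b-3p, the miR-133 member next to miR-206, had 448.9, 370.6 and 467.9 normalised CPM in the chow WT libraries and 447.8, 388.3 and 314.0 in HFD WT. The groups overlapped, and the log2 difference was -0.16 (SE 0.164, edgeR adjusted p = 0.495). miR-133a-5p, the other arm of the miR-133a hairpin and usually the less abundant one, rested on 10 to 12 counts per library in chow WT and 22 to 37 in HFD WT. Its normalised CPM were 30.6, 26.1 and 40.1 in the chow WT libraries and 12.2, 24.1 and 14.6 in HFD WT, with every HFD WT library below every chow WT library. In TPM, the highest chow WT library for miR-133a-5p was at 53.3 (95% Wilson interval 30.5 to 93.2) and the lowest at 34.1 (18.5 to 62.8). The highest HFD WT library was at 18.2 (13.2 to 25.1), which overlaps the interval of that lowest chow WT library. The log2 difference of -0.91 (SE 0.371) did not pass the edgeR test (adjusted p = 0.0767). Counting alone gives a coefficient of variation of 29.7% at the mean depth of miR-133a-5p in chow WT, and the observed one was 23.7%. With library totals as the scale, edgeR called both of these lower, miR-133b-3p at -0.89 (adjusted p = 0.00369) and miR-133a-5p at -1.66 (adjusted p = 0.00533). Under that scale 34.5% of all tested microRNAs were called lower and 4.83% higher.

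**Figure D2:**
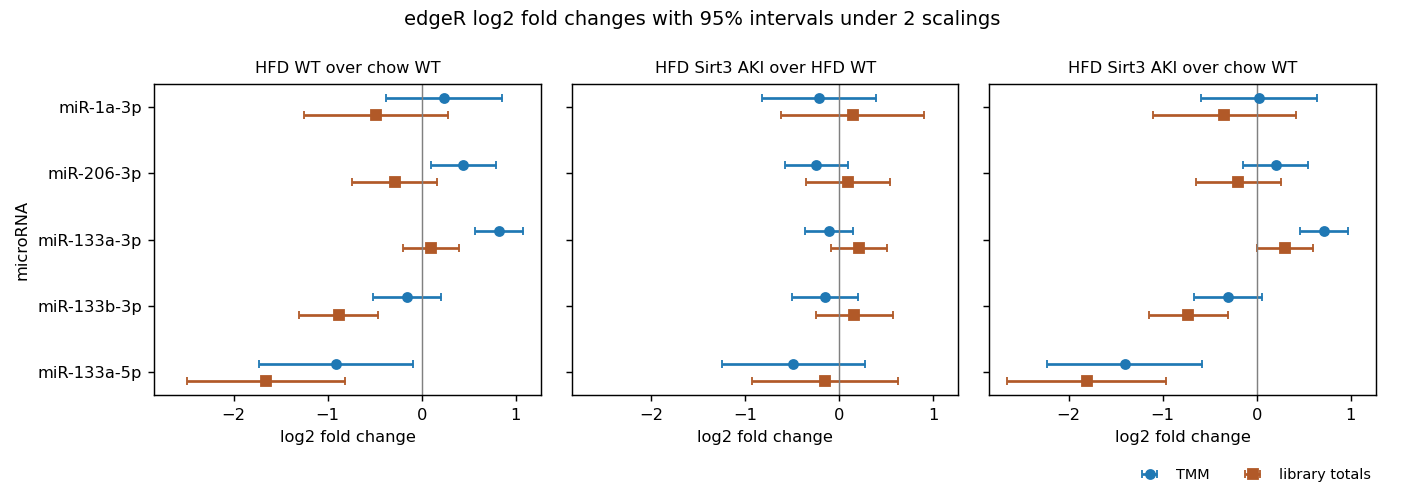
Log2 fold changes from edgeR (horizontal axis) of the 5 microRNAs (vertical axis) in the 3 comparisons; points are estimates and bars 95% intervals, with TMM scaling as circles and library totals as squares. In HFD WT over chow WT, library totals move every estimate to the left, that of miR-133a-3p from 0.82 to 0.10 and that of miR-206-3p from 0.44 to -0.29.

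Ratios of 2 microRNAs within a library carry no scaling between libraries, and 5 such ratios were compared in each of the 3 comparisons. In 8 of these 15 tests the groups did not overlap, and each of the 8 was a comparison with chow WT. In 6 of the 8 the denominator was miR-133a-3p, and all 8 share the same chow WT libraries, so they are not independent. How often ratios of other microRNAs fail to overlap was not counted. The 8 are therefore not read as particular to the muscle microRNAs. With 3 libraries against 3, the smallest p of the two-sided exact permutation test is 0.1, and the smallest value after adjustment over the 15 tests was 0.1875. None of these differences could therefore pass 0.05.

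There were 0.886, 0.969 and 0.871 reads of miR-1a-3p per read of miR-133a-3p in the chow WT libraries, 0.612, 0.639 and 0.568 in HFD WT, and 0.380, 0.863 and 0.430 in HFD Sirt3 AKI. All 3 chow WT values lay above all 6 others, by a small margin in the case of HFD Sirt3 AKI replicate 2. The mean was 0.909 ± 0.0528 (SD, n = 3) in chow WT and 0.606 ± 0.0360 in HFD WT, a log2 difference of -0.58 (exact permutation p = 0.1, adjusted 0.1875). Both microRNAs are known to come from the same transcripts.

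miR-133b-3p stood at 0.135, 0.125 and 0.171 reads per read of miR-133a-3p in the chow WT libraries, at 0.0773, 0.0766 and 0.0620 in HFD WT and at 0.0715, 0.0696 and 0.0693 in those of HFD Sirt3 AKI. The chow WT values did not overlap with those of either group on the diet. From the means of the log2 ratios, HFD WT stood at 0.501 times the chow WT value (exact permutation p = 0.1, adjusted 0.1875). Any crossing of reads between these near-identical sequences enters this ratio directly, and its size was not tested. With the counts of miR-133a-3p and miR-133b-3p summed into 1 feature, edgeR gave a log2 fold change of 0.72 in HFD WT over chow WT for the sum (SE 0.116, adjusted p = 5.59e-04).

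The 5p arm of miR-133a was at 9.23, 8.83 and 14.6 reads per 1000 reads of the 3p arm in the chow WT libraries, at 2.11, 4.76 and 2.88 in HFD WT and at 2.28, 2.93 and 2.13 in those of HFD Sirt3 AKI. The chow WT libraries were again the 3 highest of the 9. The log2 difference of HFD WT over chow WT was -1.82 (exact permutation p = 0.1, adjusted 0.1875), on 10 to 37 counts of the 5p arm in each of these libraries. The chow WT libraries are also the 3 with the lowest total counts, and the part of depth in these ratios was not tested.

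For the pair from the skeletal muscle locus, there were 3.32, 4.25 and 3.17 reads of miR-206-3p per read of miR-133b-3p in the chow WT libraries, 4.53, 5.35 and 6.62 in HFD WT, and 4.36, 6.26 and 4.45 in HFD Sirt3 AKI. All values on the diet lay above those on chow, with a log2 difference of 0.62 in HFD WT (exact permutation p = 0.1, adjusted 0.1875). The 2 members that share a seed, miR-206-3p and miR-1a-3p, had a ratio that overlapped between all groups. It averaged 0.560 ± 0.0572 (SD, n = 3) in the chow WT libraries, 0.645 ± 0.0753 in HFD WT and 0.681 ± 0.161 in those of HFD Sirt3 AKI. The log2 difference of HFD WT over chow WT was 0.20 (exact permutation p = 0.2, adjusted 0.333).

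**Figure D3:**
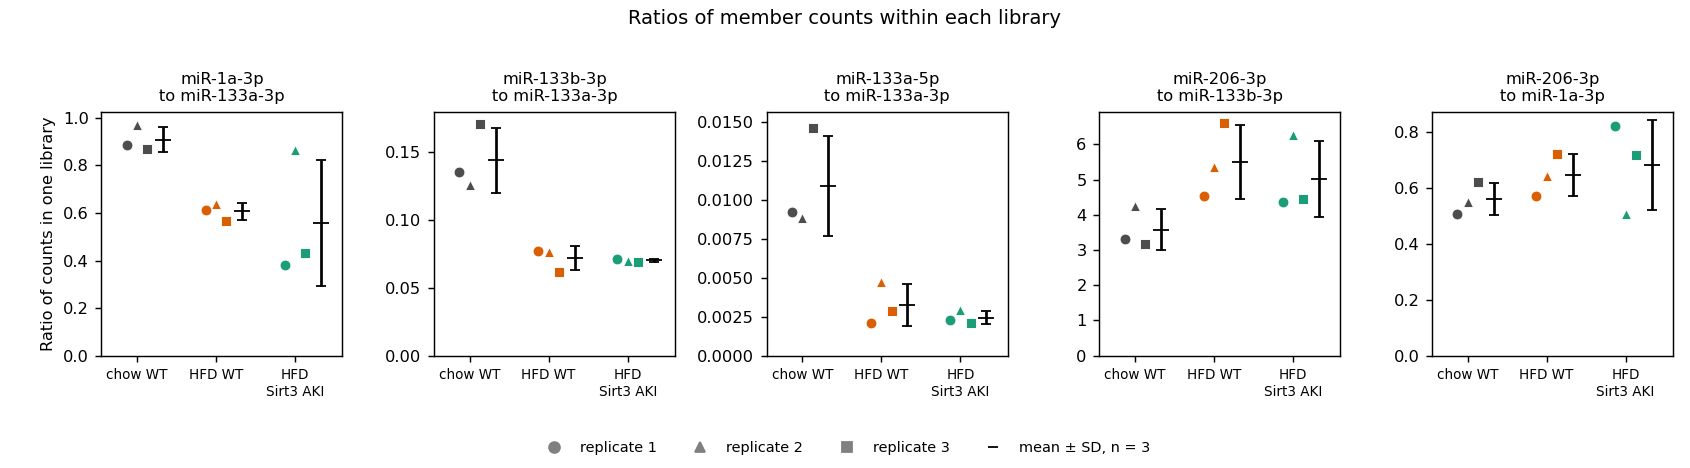
Ratios of counts of 2 muscle microRNAs in the same library (vertical axis, from 0, own scale in each panel) for the 3 groups; symbols are libraries and bars are mean ± SD of 3 libraries. The ratios to miR-133a-3p are highest in the 3 chow WT libraries, and the ratio of miR-206-3p to miR-1a-3p overlaps between the groups.

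As shares of the 5 microRNAs' own counts, miR-133a-3p took 38.9% ± 1.24 (SD, n = 3) in the chow WT libraries, 48.3% ± 1.18 in HFD WT and 51.4% ± 7.99 in those of HFD Sirt3 AKI. miR-1a-3p took 35.3% ± 1.64, 29.3% ± 1.26 and 27.2% ± 8.02. The share of miR-206-3p overlapped between the groups, at 19.7% ± 1.41, 18.8% ± 1.51 and 17.7% ± 0.676. miR-133b-3p took 5.59% ± 0.912, 3.47% ± 0.393 and 3.61% ± 0.590, with chow WT above both other groups in every library. miR-133a-5p made up 0.423% ± 0.122, 0.156% ± 0.0613 and 0.124% ± 0.00590.

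**Figure D4:**
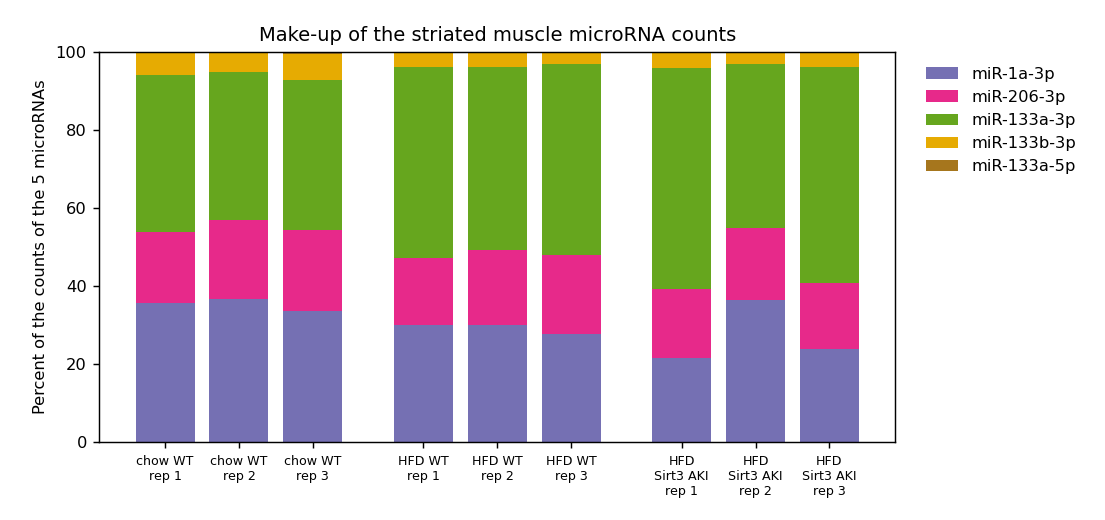
Make-up of the muscle microRNA counts in each of the 9 libraries, as percent of the summed counts of the 5 microRNAs (vertical axis, 0 to 100). The miR-133a-3p segment is 37.9% to 40.3% in chow WT and 46.9% to 49.0% in HFD WT; HFD Sirt3 AKI replicate 2, at 42.2%, lies between these ranges, and miR-133a-5p, under 1% in each library, is too thin to see.

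The second comparison asks what adipose Sirt3 overexpression did on the high fat diet. It shares the HFD WT libraries with the first. With all libraries, edgeR under TMM called 0 of the 5 muscle microRNAs changed in HFD Sirt3 AKI against HFD WT, and 0 had an unadjusted p below 0.05. DESeq2 and limma also called 0. Of all 414 tested, 109 had an unadjusted edgeR p below 0.05. DESeq2 called 38 of the 414 higher and 27 lower, and limma on log2(TPM + 1) called 29 higher and 11 lower. Among all 414 tested, edgeR called 1.45% higher and 7.49% lower. The log2 differences were -0.22 for miR-1a-3p (95% interval -0.83 to 0.39), -0.11 for miR-133a-3p (-0.36 to 0.15), -0.49 for miR-133a-5p (-1.25 to 0.27), -0.15 for miR-133b-3p (-0.50 to 0.20) and -0.24 for miR-206-3p (-0.58 to 0.10), with edgeR adjusted p from 0.337 to 0.669. A batch term sets HFD Sirt3 AKI replicate 1 apart from replicates 2 and 3, so the estimate for the group then rests on replicate 1 alone. That fit gave log2 differences of -0.89 for miR-1a-3p and -0.53 for miR-206-3p. Relative to library totals, 4 of the differences without the batch term turned positive, at 0.14, 0.20, 0.16 and 0.09 for miR-1a-3p, miR-133a-3p, miR-133b-3p and miR-206-3p. The within-library ratios overlapped between these 2 groups in all 5 cases, with exact permutation p from 0.5 to 1. For miR-1a-3p to miR-133a-3p this overlap rested on HFD Sirt3 AKI replicate 2. Without that library the ratios were 0.380 and 0.430, below the 0.568 to 0.639 of HFD WT, and the log2 difference went from -0.22 to -0.58.

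HFD Sirt3 AKI replicate 2 was the highest of the 9 libraries for both miR-1a-3p and miR-206-3p. miR-1a-3p had 1737, 4359 and 2223 normalised CPM in HFD Sirt3 AKI replicates 1, 2 and 3, against 2878 to 3544 in HFD WT. Replicate 2 lay above the whole HFD WT range and the other two lay below it. The coefficient of variation of normalised CPM in HFD Sirt3 AKI was 50.3% for miR-1a-3p and 6.35% for miR-133a-3p. Without replicate 2, edgeR called 2 of the 5 lower in HFD Sirt3 AKI than in HFD WT, beside 7.94% of all tested: miR-1a-3p at a log2 change of -0.67 (SE 0.133, adjusted p = 0.00355) and miR-206-3p with -0.42 (SE 0.111, adjusted p = 0.0218). miR-133a-3p was at -0.09 in that fit. As replicate 2 was the highest library for both microRNAs called, leaving it out lowers their group mean by construction, and 2 libraries of the group remain. In the larger batch alone, which holds 1 HFD Sirt3 AKI library, edgeR called miR-1a-3p lower at -0.75 (adjusted p = 0.00734), beside 2.40% of all tested, with that lone library assumed to vary like the others. Without HFD Sirt3 AKI replicate 1 the log2 difference of miR-1a-3p was 0.04. Replicate 2 was also the library high in hepatocyte and brain microRNAs and in miR-143-3p, and their part in its miR-1a-3p and miR-206-3p levels was not tested.

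The third comparison, HFD Sirt3 AKI against chow WT, differs in both diet and genotype, and it shares libraries with each of the others. edgeR called 1 of the 5 muscle microRNAs higher, beside 20.3% of all tested, and 1 lower, beside 19.6%. miR-133a-3p rose 1.64-fold (log2 fold change 0.71, SE 0.117, edgeR adjusted p = 6.49e-04), and the difference was 0.30 relative to library totals (edgeR adjusted p = 0.0985). miR-133a-5p fell, at a log2 change of -1.40 (SE 0.374, edgeR adjusted p = 0.0115) and normalised CPM between 10.5 and 14.8 in the 3 HFD Sirt3 AKI libraries. The call of miR-133a-5p was lost without chow WT replicate 3, its highest library, at a log2 difference of -1.22 (edgeR adjusted p = 0.0545). Relative to library totals miR-133a-5p was at -1.81.

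The other 3 microRNAs did not pass the test with all libraries. miR-133b-3p had 327.2, 351.8 and 358.1 normalised CPM in HFD Sirt3 AKI, all below the chow WT libraries, at a log2 difference of -0.31 (SE 0.164, edgeR adjusted p = 0.158). With library totals edgeR called it lower at -0.73 (adjusted p = 0.0108), where 31.2% of all tested were called lower and 9.66% higher. miR-1a-3p was at 0.02 (edgeR adjusted p = 0.962) and miR-206-3p at 0.20 (edgeR adjusted p = 0.345). Both turned negative relative to library totals, to -0.35 and -0.20. In the larger batch alone edgeR called miR-1a-3p lower at -0.45 (adjusted p = 0.0299), beside 15.9% of all tested, with its lone HFD Sirt3 AKI library again assumed to vary like the others, and without HFD Sirt3 AKI replicate 2 it was at -0.32 (edgeR adjusted p = 0.0675). The ratios to miR-133a-3p again did not overlap with chow WT, with log2 differences of -0.80 for miR-1a-3p, -1.03 for miR-133b-3p and -2.16 for miR-133a-5p (exact permutation p = 0.1 for each, adjusted 0.1875).

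The microRNAs that lie within myosin heavy chain genes mark heart and slow muscle fibres, and they had few or no counts in these libraries. Their RefSeq sequences are shown to set the shared and differing seeds, in capitals, beside those of the skeletal muscle locus:
miR-208a-3p: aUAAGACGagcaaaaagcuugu
miR-208b-3p: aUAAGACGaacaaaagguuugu
miR-499-5p: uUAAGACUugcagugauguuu
miR-208a-3p (chr14:54949072-54949093, minus strand) lies within Myh6, miR-208b-3p (chr14:54975710-54975731, minus strand) within Myh7, and miR-499-5p (chr2:155622893-155622913, plus strand) within Myh7b, on GRCm38.p6. Counted from the 5′ end, miR-208b-3p differs from miR-208a-3p by G10A, A16G and C18U, all outside the seed. miR-208a-3p, the microRNA of the adult mouse heart's main myosin gene, had 1 count in HFD Sirt3 AKI replicate 3 and 0 in the other 8 libraries. A count of 0 allows up to 3 counts, or 9.77 to 13.3 TPM in the chow WT libraries and 1.01 to 1.73 TPM in the others, for counting error only. miR-208b-3p had 2 counts in each of HFD WT replicates 2 and 3, 4 in HFD Sirt3 AKI replicate 1 and 0 elsewhere. miR-499-5p had 0 to 1 counts in the chow WT libraries, 1 to 3 in HFD WT and 4 to 8 in those of HFD Sirt3 AKI. Of the 6 listed arms 3 had a row in the counts, and they summed to 1 count in the chow WT libraries, 10 in HFD WT and 23 in those of HFD Sirt3 AKI. These counts are not scaled for depth, which was lowest in chow WT. In TPM the sum was 0 to 3.26 per library in chow WT, 0.46 to 2.56 in HFD WT and 2.37 to 4.63 in HFD Sirt3 AKI. None of the arms passed the low-count filter, so no change was tested. The 5 muscle microRNAs summed to 8341, 53418 and 62929 counts in the same groups.

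Other arms of the muscle microRNA precursors, and microRNAs close to them in name, were also sparse. Of 7 listed, 4 had a row and none passed the filter. miR-1b-3p had 0 to 7 counts per library. miR-1a-1-5p, the other arm of a miR-1a hairpin, had 0 to 1 counts in the chow WT libraries, 0 to 3 in HFD WT and 2 to 9 in those of HFD Sirt3 AKI. These counts too are not scaled for depth.

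**Figure D5:**
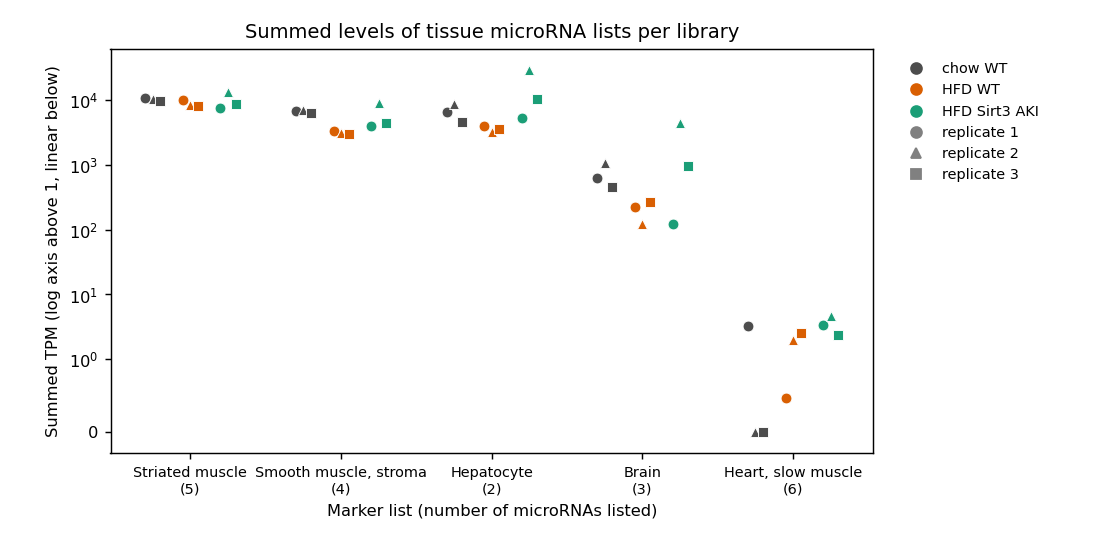
Summed TPM of lists of tissue microRNAs in each library (vertical axis, logarithmic above 1 and linear below it); colours are groups and symbols replicates. The muscle microRNAs span 7539 to 13096 TPM, the heart and slow muscle microRNAs stay at 0 to 4.63 TPM, and HFD Sirt3 AKI replicate 2 is the highest library in the hepatocyte, brain and smooth muscle lists.

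Further microRNAs linked to muscle, but also made by other tissues, were listed for the context of the pathway, and all 14 were tested. In HFD WT over chow WT edgeR called 5 higher and 4 lower, beside 21.5% and 16.2% of all tested, with a median log2 fold change of 0.22 beside 0.15 for all tested. As the a and b copies of miR-486 have identical counts, the 5 higher rows are 3 distinct ones. The higher ones were miR-29a-3p and the 4 rows of miR-486, which is abundant in red cells as well as muscle. miR-486a-5p and miR-486b-5p, with identical counts, were at 1.47 each (SE 0.124, edgeR adjusted p = 8.11e-06), a larger log2 fold change than the 0.82 of miR-133a-3p. The lower ones were miR-378a-3p and miR-378a-5p, which come from an intron of Ppargc1b, a regulator of mitochondrial genes, with miR-29c-3p and miR-181a-5p. In HFD Sirt3 AKI over HFD WT the calls were 0 higher and 2 lower, both rows of miR-486-3p at -0.50 and thus 1 distinct one, beside 1.45% and 7.49% of all tested, with a median of -0.13 beside -0.02 for all tested. For HFD Sirt3 AKI against chow WT, edgeR called 5 higher, again 3 distinct ones, and 4 lower, beside 20.3% and 19.6% of all tested, with a median of 0.16 beside 0.06. With library totals as the scale, HFD WT over chow WT had 4 of the 14 called higher and 8 lower by edgeR, beside 4.83% and 34.5% of all tested, with a median of -0.51 beside -0.57 for all tested, and miR-29a-3p turned to -0.17. The 4 called higher there are the rows of miR-486, of which 2 are distinct. On that scale the rows of miR-486-3p were at -0.20 in HFD Sirt3 AKI over HFD WT and were not called (edgeR adjusted p = 0.284). The 5 red cell microRNAs, which include the miR-486-5p rows, summed to 208360 to 237551 TPM in the chow WT libraries, 304469 to 322649 in HFD WT and 291198 to 337258 in those of HFD Sirt3 AKI. These sums, like the library totals, count the identical rows of miR-486a-5p and miR-486b-5p separately. Either row alone held 26107 of 306974 counts in chow WT replicate 1 and 294610 of 2162009 in HFD WT replicate 1. The part of the red cell microRNAs in the scaling of the muscle microRNAs was not tested in the edgeR fit.

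Profiles over the 9 libraries were compared by the root mean square difference of log2 normalised CPM after centring, where 0 is an identical profile. The closest known microRNAs outside the members were miR-1843b-5p (0.125), miR-224-5p (0.149) and miR-351-5p (0.158) for miR-133a-3p. For miR-206-3p they were let-7c-5p (0.142), miR-322-5p (0.149) and miR-27b-3p (0.154), and for miR-133b-3p miR-378d (0.110), miR-93-3p (0.124) and miR-378a-3p (0.169). miR-1a-3p was closest to miR-322-5p (0.207), miR-101b-3p (0.251) and miR-335-5p (0.272), and miR-133a-5p to miR-30b-5p (0.248), miR-125b-2-3p (0.281) and miR-671-5p (0.307). Among the members the closest pair was miR-1a-3p with miR-206-3p (0.229), and the most distant was the 2 arms of miR-133a (0.954).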

How the data were processed

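Small RNA from serum vesicles was counted in 9 libraries, 3 in each of 3 groups taken from the labels. The authors deposited whole-number read counts per mature microRNA for 1064 known and 105 predicted microRNAs, and a TPM table. The deposited TPM equal the count over the library total per 1000000 (largest difference 5.00e-05), so they carry no length term. Vesicles came from serum by overnight precipitation with a commercial reagent and were sequenced as Illumina libraries, per the labels' protocols. The submitters' processing notes list Bowtie 0.12.2 and mm8 without saying what each was used for. No source used here states the trimming, the microRNA reference, the handling of multi-mapping reads or a test.

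The fit was run in R 4.3.3 on the whole table with edgeR 4.0.16: filterByExpr (minimum count 10), TMM, quasi-likelihood fit of group means over all 9 libraries, and Benjamini-Hochberg adjustment over the 414 microRNAs kept. The 755 left out held 0.0543% of counts. Alternatives used DESeq2 1.42.0, limma 3.58.1 on log2(TPM + 1) and log2(TPM + 10), other scalings and sample sets. Ratios used a pseudocount of 0.5 counts in the log2 differences and two-sided exact permutation tests in SciPy 1.17.1. Intervals of log2 fold changes are at 95%. The edgeR step was tested on simulated counts with known changes. It called 17 of 64 rows changed 1.5-fold, 35 of 63 changed 2-fold, 55 of 64 changed 4-fold and 2 of 202 unchanged rows. Many changes of 1.5-fold to 2-fold were thus missed, and a difference that is not called is not shown to be absent. The members and lists were chosen with earlier results of these data known. The microRNAs named are the 5 members, those of the lists with counts, and for each member the 3 with the closest profile. Depth was lowest in chow WT, where 1 count is worth most. Intervals and limits for a count of 0 cover counting error only, since reads without molecular identifiers are not independent molecules. Sequences and positions are from RefSeq on GRCm38.p6, which is not the build named by the submitters, and the files hold no coordinates for known microRNAs.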

Additional observations from a re-analysis of the deposited data

How the results depend on the processing

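Depth limited the muscle microRNAs mainly in chow WT, where miR-133a-5p had 10 to 12 counts per library. Over all alternatives of the fit, miR-133a-3p stayed above 0 in both comparisons with chow WT. For HFD WT over chow WT, the main fit called 2 of the 5 higher and 0 lower, beside 89 and 67 of all 414 tested. The member counts that follow are not read as particular to the muscle microRNAs. The number called higher was 1 with DESeq2's size factors, beside 71 of all 414 tested, and 1 with DESeq2, beside 67. It was 0 with library totals, beside 20 of all tested, and 0 with either limma fit, beside 21. When a library was left out it was 1 to 3, beside 61 of 439 to 118 of 428 tested. The number called lower was 1 with DESeq2's size factors, beside 77 of all 414 tested. With a fit of the compared groups alone it was 1, beside 94 of 348. It was 2 with library totals, beside 143 of 414, and 2 with either limma fit, beside 156 and 154. Without 1 library it was 0 to 1, beside 51 of 429 to 70 of 428. For HFD Sirt3 AKI over HFD WT the number called lower was 0 to 2 without 1 library. Among all tested it ran from 12 of 438 to 47 of 441. In the larger batch, which holds 1 HFD Sirt3 AKI library, the log2 difference of miR-1a-3p was -0.75. For HFD Sirt3 AKI over chow WT the number called higher was 0 with library totals, beside 40 of 414. It was 0 with either limma fit, beside 45 and 46 of 414. The number called lower was 2 with each of these 3, beside 129, 139 and 143 of 414. With no low-count filter it was 0, beside 60 of 1169. Without 1 library it was 0 to 1, beside 63 of 433 to 80 of 428.

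Directions turned as follows, as log2 fold changes, and the cause was not tested beyond the change of scale itself. In HFD WT over chow WT, miR-1a-3p was -0.49 with library totals, limma on log2(TPM + 1) and limma on log2(TPM + 10) alike, miR-206-3p was -0.29 in each of these, and miR-133b-3p was 0.046 with no low-count filter. In HFD Sirt3 AKI over HFD WT, library totals gave 0.14 for miR-1a-3p, 0.20 for miR-133a-3p, 0.16 for miR-133b-3p and 0.093 for miR-206-3p, and both limma fits gave 0.20 for miR-133a-3p, 0.17 for miR-133b-3p and 0.041 for miR-206-3p. A fit of the compared groups alone gave 0.020 for miR-133a-3p, and miR-1a-3p ranged from -0.67 to 0.038 without 1 library. In HFD Sirt3 AKI over chow WT, miR-1a-3p was -0.35 with library totals, -0.51 and -0.50 with the limma fits, -0.65 with a batch term, -0.45 in the larger batch, and -0.32 to 0.29 without 1 library; miR-206-3p was -0.20 with library totals, -0.25 with both limma fits and -0.087 with a batch term. For HFD Sirt3 AKI, the values with a batch term and in the larger batch rest on replicate 1 of that group alone. The replicate block gave -0.045 for miR-1a-3p in HFD Sirt3 AKI over chow WT and changed no call of a muscle microRNA. The block is not used because the numbers did not pair the samples: correlations of same-numbered libraries' deviations from their group means ran from -0.08 to 0.19, and those of other pairs from -0.22 to 0.15.

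The within-library ratios against chow WT kept their direction with a pseudocount of 1, in the larger batch and without any 1 library. In HFD Sirt3 AKI over HFD WT, without 1 library, the log2 ratio of miR-1a-3p to miR-133a-3p ranged from -0.58 to 0.0088, that of miR-206-3p to miR-133b-3p from -0.30 to 0.0096, that of miR-133b-3p to miR-133a-3p from -0.13 to 0.025 and that of miR-206-3p to miR-1a-3p from -0.094 to 0.26. The summed share, in percentage points, went from -0.066 to 0.212 without 1 library in HFD Sirt3 AKI over HFD WT and was -0.112 in the larger batch. In HFD Sirt3 AKI over chow WT it was 0.0406 without miR-1a-3p in the sum, 0.116 with red cell microRNAs removed from the total, and -0.205 to 0.0729 without 1 library.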
